A study of Homo sapiens with 8 samples.

Results

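The TEAD4 peaks at which no TEAD1 peak was found were examined in the cholangiocarcinoma (bile duct cancer) cell line HuCCT1. They were chosen by the deposited peak lists themselves: a TEAD4 peak was taken if it shared no base with any TEAD1 peak, and 353 of 12188 TEAD4 peaks (2.9%) met this rule, out of 51828 peaks in the 5 lists of the series. They are called TEAD4-only peaks here, which says only that the TEAD1 list has no peak there. The series profiled chromatin by immunoprecipitation and sequencing (ChIP-seq) in 8 libraries of this cell line, with 1 library each for TEAD1, TEAD4, YAP, TAZ (the WWTR1 product), HA-YAP5SA, GFP, IgG and input. HA-YAP5SA is a YAP form with its inhibitory serines exchanged for alanine, pulled down through an HA tag. The labels give no other genotype, treatment or time for any group, and they do not say whether the TEAD4 and TEAD1 libraries came from cells that carried the tagged YAP. No group has a replicate, the depth of the libraries is unknown, and the GFP, IgG and input libraries were not analysed here. Intervals in brackets are exact 95% binomial (Clopper-Pearson) intervals, which cover counting error over peaks of 1 library and no variation between cultures.

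TEAD1 and TEAD4 are paralogous transcription factors that share a DNA-binding domain of the TEA type and recognise the same short motif, known as the M-CAT element. YAP and TAZ, the coactivators at the end of the Hippo kinase cascade, have no DNA-binding domain and are brought to chromatin mainly by TEAD proteins, often at enhancers that also bind AP-1. The TEAD paralogues are often found at the same sites of one cell type.

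TEAD4-only peaks were mostly low in the TEAD4 list. Their median score, the value the authors' peak caller gave each peak on a scale that is not stated, was 95.6 (interquartile range 87.9 to 110.9, range 80.07 to 3100). The 11835 other TEAD4 peaks had a median of 165.6 (112.5 to 275.7). In the ordered TEAD4 list the median TEAD4-only peak stood at the 14.8th percentile. Of the 353 peaks, 334 scored below the list's median and 10 scored 200 or more. The lists that chose the peaks also gave these scores, so they describe the peaks and carry no test.

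The share of TEAD4 peaks without TEAD1 was highest in the lowest scores. It was 10.0% in the lowest score decile (122 of 1219, interval 8.38 to 11.8%), 7.47% in decile 2 (91 peaks, 6.05 to 9.09%) and 5.99% in decile 3 (73 peaks, 4.72 to 7.47%). It was 1.23% in decile 5 (15 peaks, 0.690 to 2.02%) and 0.164% in the highest (2 of 1219, 0.0199 to 0.591%). From decile 7 upward each decile held 3 or fewer such peaks, and those decile intervals overlapped one another.

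**Figure D1:**
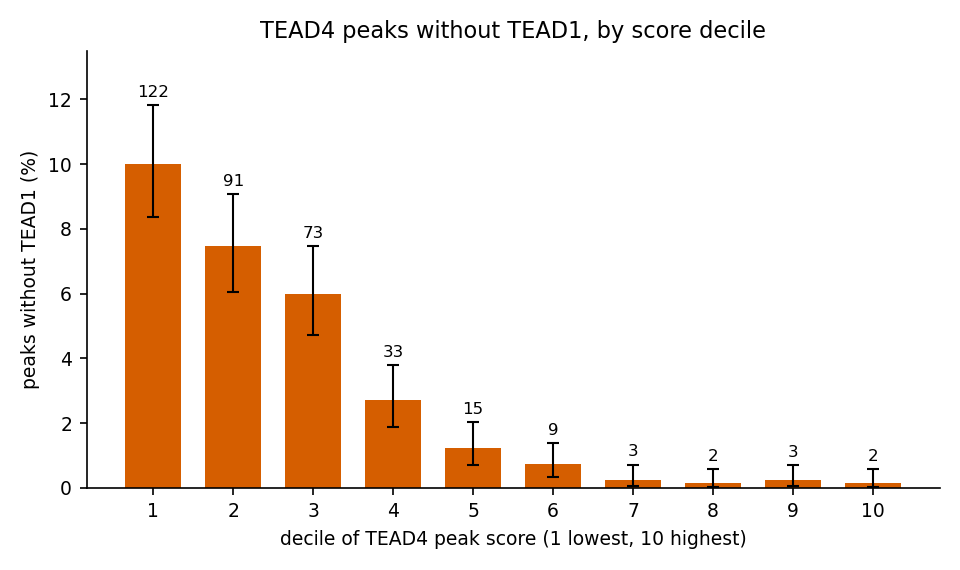
Share of TEAD4 peaks that share no base with a TEAD1 peak, in percent, in each score decile of the TEAD4 list (1 lowest, 10 highest). Bars are shares, lines are exact 95% binomial intervals and the numbers are counts of peaks; the share goes from 10.0% in the lowest decile to 0.164% in the highest.

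In width the TEAD4-only peaks covered a broad range. Most were narrow, with a median of 302 bp over all 353 (interquartile range 239 to 406 bp), beside 353 bp (283 to 442 bp) for the other TEAD4 peaks. A further 18 were wider than 1 kb, with a median of 2255.5 bp, and these made up 5.10% of TEAD4-only peaks, whereas 28 of 11835 other TEAD4 peaks (0.237%) were that wide. Wide TEAD4-only peaks were low for their width: their median score was 102, and that of the 28 wide peaks with TEAD1 was 478. Among all 46 TEAD4 peaks over 1 kb, 39.1% lacked TEAD1 (interval 25.1 to 54.6%), and among the 12142 others 2.76% did (2.47 to 3.07%). A wider peak has more bases with which to meet a TEAD1 peak.

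**Figure D2:**
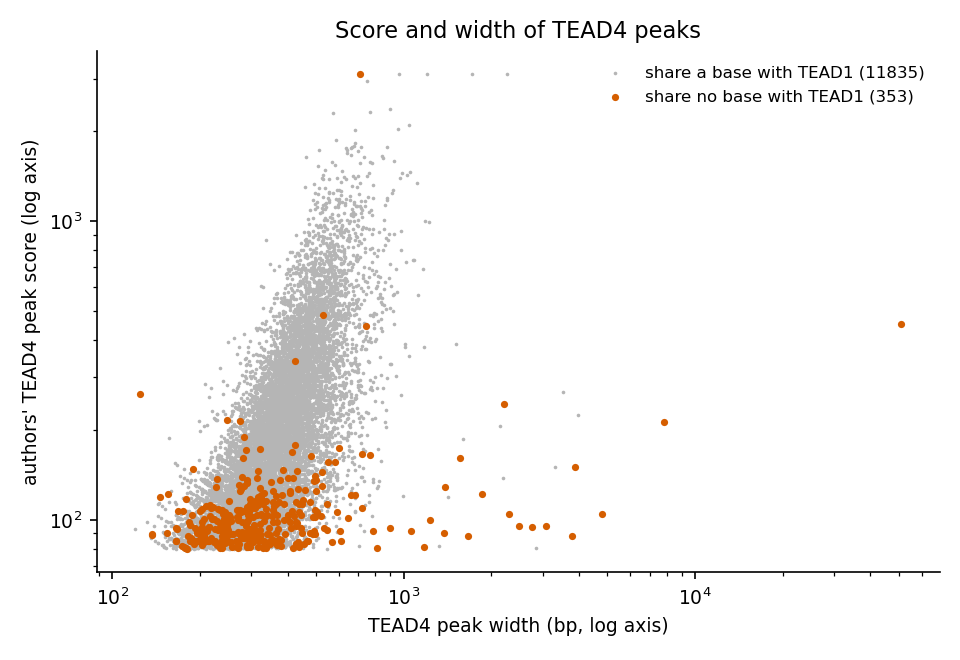
Width in bp against the authors' score for each TEAD4 peak, on log axes; orange points are the 353 peaks that share no base with TEAD1 and grey points the 11835 others. The orange points gather at scores near 100, with a few high scores, and 18 lie to the right at widths over 1 kb.

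The rule draws its line at 1 shared base, and few peaks lay near it. Just inside it, the TEAD4-only peak nearest to TEAD1 was on chromosome 1 (hg19 144339629 to 144340066, score 80.8), with 48 bp between the peaks. Next came chromosome 5 (1326618 to 1326927, score 92.5, 65 bp away), chromosome 5 (55290860 to 55291409, score 156, 69 bp), chromosome 16 (24588856 to 24589072, score 103, 73 bp) and chromosome 1 (40442440 to 40442692, score 102, 74 bp). Just outside it, the TEAD4 peaks with the fewest bases in common with TEAD1 shared 17 bp on chromosome 20 (5345167 to 5345377, score 96.2), 49 bp on chromosome 16 (73266641 to 73266909, score 102) and 60 bp on chromosome 11 (102033119 to 102033316, score 87.7). The next pair shared 87 bp on chromosome 1 (231532025 to 231532183, score 98.5) and 114 bp on chromosome 4 (26199177 to 26199421, score 102). All 10 of these peaks scored below the median of the TEAD4 list.

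Most TEAD4-only peaks lay well apart from any TEAD1 peak. The nearest TEAD1 peak lay a median of 14.6 kb away (interquartile range 4.33 to 35.8 kb, longest 939 kb). It lay within 500 bp for 32 of the 353 (9.07%, interval 6.28 to 12.6%), within 1 kb for 42 and farther than 10 kb for 214 (60.6%, 55.3 to 65.8%). For 29 peaks it lay over 100 kb away, and 7 of these 29 were wider than 1 kb. Narrow and wide peaks differed here, with a median distance of 14.2 kb for the 335 peaks of 1 kb or less and 71.0 kb for the 18 wider ones. A median of 2 TEAD1 peaks (interquartile range 1 to 4) had their centre within 50 kb of a TEAD4-only peak, and 65 of the 353 had none. For other TEAD4 peaks, each of which has a TEAD1 peak of its own by the rule, the median was 4 (2 to 6).

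**Figure D3:**
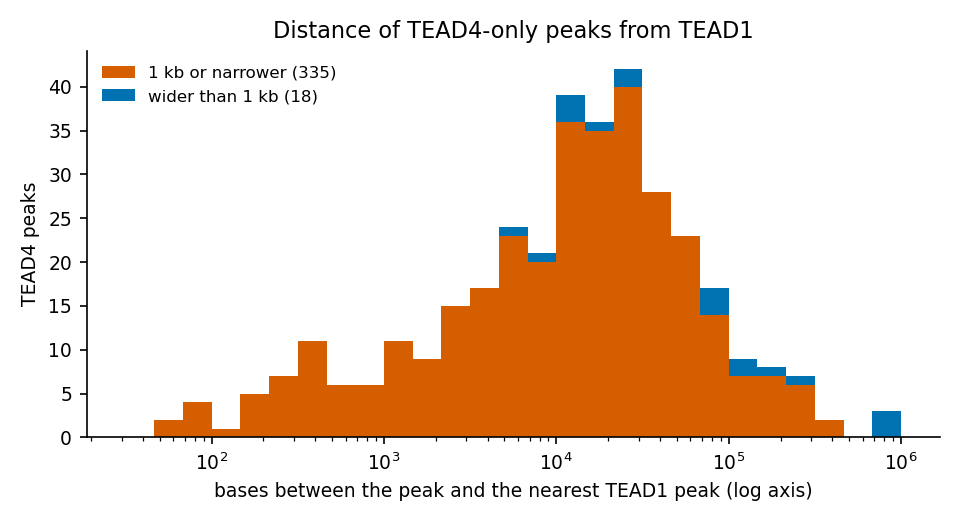
Number of TEAD4-only peaks by the number of bases between the peak and the nearest TEAD1 peak, on a log axis, with peaks of 1 kb or less in orange and wider ones in blue. Most lie between 1 and 100 kb, 32 peaks lie within 500 bp, and the 3 peaks farthest from TEAD1 are all wider than 1 kb.

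Some of the 32 peaks within 500 bp of TEAD1 flanked a site that both factors occupied. In 17 of them (53.1%, interval 34.7 to 70.9%) the neighbouring TEAD1 peak carried a TEAD4 peak of its own. For the 321 farther ones the nearest TEAD1 peak carried a TEAD4 peak in 117 cases (36.4%, 31.2 to 42.0%), and among all TEAD1 peaks 30.6% did. The intervals of the first 2 shares overlap, and their difference was not tested. The shortest gap to another TEAD4 peak was on chromosome 5, where the peak at 1326618 to 1326927 ended 5 bp from the next TEAD4 peak. The TEAD1 peak beside it (1326993 to 1329244) had a score of 2293.

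Across the genome the TEAD4-only peaks were scattered. They fell on 23 placed chromosomes and 1 unplaced scaffold, and, counting centres up to 25 kb apart as neighbours, 322 stood alone, 12 groups held 2, 1 group held 3 and 1 group held 4. Another TEAD4 peak of any kind lay within 12.5 kb of 26.9% of them (interval 22.4 to 31.9%) and of 32.9% of the others (32.1 to 33.8%). Chromosome 1 held the most, 64 of its 1468 TEAD4 peaks (4.36%, 3.37 to 5.53%), followed by chromosomes 5 and 17 with 26 each (3.32%, 2.18 to 4.83%, and 4.11%, 2.70 to 5.96%). None of the 149 TEAD4 peaks of chromosome 22 was of this kind (interval 0 to 2.45%). Chromosome Y held 3 of 35 (8.57%, 1.80 to 23.1%). These shares were computed for every sequence and were not tested against each other.

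The 10 highest-scoring TEAD4-only peaks included several unlike the rest. First was a peak on chromosome 8 (128747932 to 128748641, 710 bp), at the list's top score of 3100 that 5 TEAD4 peaks share. The nearest TEAD1 peak was 5.25 kb away and scored 104. Second was a 528 bp peak on chromosome 11 (101981457 to 101981984, score 484). The third was a region of 51174 bp on chromosome Y (58819352 to 58870525, score 451), followed by a 745 bp peak on chromosome 17 (61993999 to 61994743, score 446) that lay 8.95 kb from TEAD1. The next was on chromosome 11 again (102100323 to 102100745, score 340). Rank 6, on chromosome 16 (223998 to 224122, score 264), was just 125 bp wide, the narrowest of the 353 peaks, and the nearest TEAD1 peak was 250.0 kb away. The others were on chromosome 21 (9825428 to 9827637, score 243), chromosome 11 (102076586 to 102076833, score 217, and 101984854 to 101985128, score 214) and chromosome 1 (228745951 to 228753798, score 213). Of these 10 peaks, 4 lay in 1 stretch of chromosome 11 and 3 others were wider than 1 kb.

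The stretch on chromosome 11, singled out after its values were seen, ran over 119 kb from 101981457 to 102100745 and held 6 TEAD4-only peaks among 8 TEAD4 peaks. Its ends are the outer edges of the first and last of these 6. A TEAD4 peak with TEAD1 (101980757 to 101981213, score 224) lay before it, with 243 bp between, and is outside the count of 8. By general knowledge of the hg19 map this part of chromosome 11 is the locus of YAP1, the gene of YAP itself. No hg19 annotation was used here, so the peaks were not placed in its exons or introns. DNA of an expression construct with the YAP coding sequence, such as one for HA-YAP5SA, would map to the exons of this gene. Whether such DNA contributed to these TEAD4 and HA-YAP5SA peaks was not tested, so they are not shown to be binding at the chromosomal gene. In RefSeq on GRCh38.p14, YAP1 is on chromosome 11 and spans 123 kb. In order along the stretch, the 6 peaks scored 484, 214, 217, 122, 148 and 340. Their widths in the same order were 528, 275, 248, 155, 189 and 423 bp, with a median of 261.5 bp. The median of their scores was 215, against 95.6 for all TEAD4-only peaks, and all 6 scored above that median. Since the stretch was singled out after these scores were seen, this is a description with no test.

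TEAD1 was not absent from the stretch. It held 7 TEAD1 peaks with scores from 81.9 to 630, and none shared a base with the 6 TEAD4-only peaks. The gaps to the nearest TEAD1 peak were 206 bp, 3.60 kb, 19.7 kb, 2.01 kb, 237 bp and 2.37 kb, in the same order. Those of 206 bp and 3.60 kb were to a TEAD1 peak just before the stretch (101980667 to 101981250, score 175), which met a TEAD4 peak there. The other TEAD4 peaks inside the stretch both met TEAD1. One of them lay inside the TEAD1 peak with the score of 630, and the other shared 60 bp with the TEAD1 peak with the score of 81.9. The strongest TEAD1 peak of the stretch thus met a TEAD4 peak of score 100.0, lower than each of the 6 TEAD4-only peaks. HA-YAP5SA had 1 peak in the stretch (102100430 to 102100723, score 106), which lay wholly within the last TEAD4-only peak. Neither the YAP antibody nor TAZ had a peak there.

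**Figure D4:**
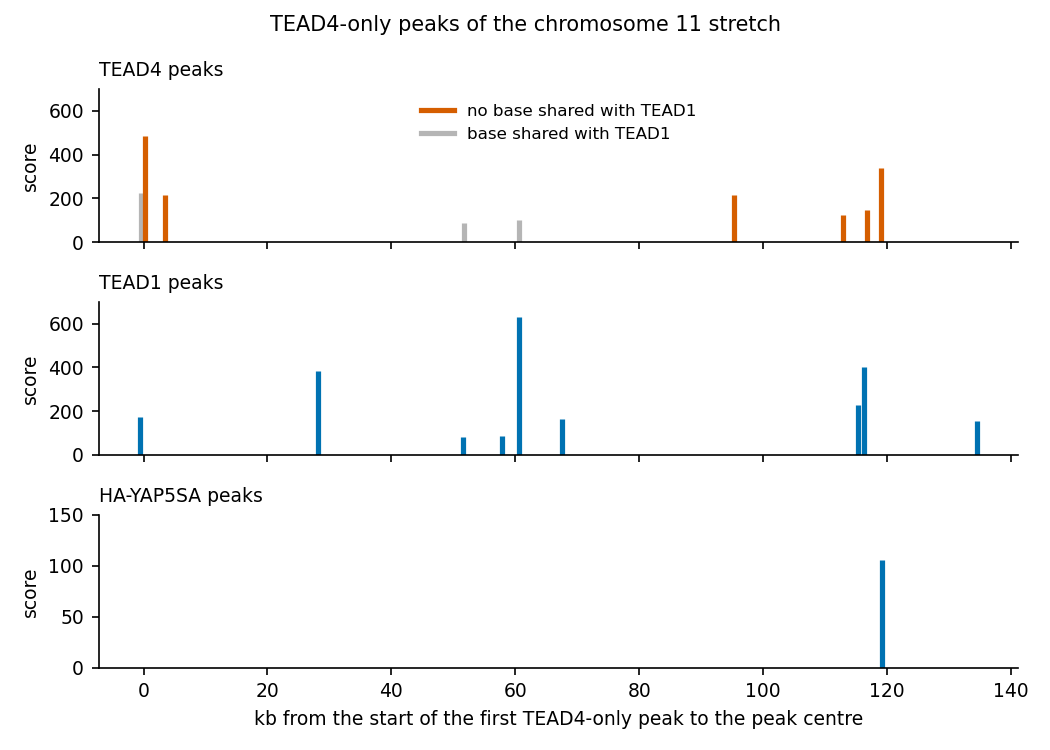
Peaks of TEAD4, TEAD1 and HA-YAP5SA in the chromosome 11 stretch and 25 kb to each side, drawn as lines at the peak centre with the authors' score as height; scores of different lists are not on a common scale. The 6 orange TEAD4-only peaks stand in 2 groups near the ends of the stretch and 1 between them, and 2 of them lie 206 and 237 bp from a TEAD1 peak, too close to be told from it on this axis.

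The remaining question was whether these TEAD4 peaks carried the coactivators. The HA-YAP5SA, YAP and TAZ lists played no part in choosing the peaks, but each met the TEAD1 list to a different degree. No base was shared with TEAD1 by 41 of 847 HA-YAP5SA peaks (4.84%), 362 of 454 YAP peaks (79.7%) and all 153 TAZ peaks. An HA-YAP5SA peak that met TEAD1 could meet a TEAD4-only peak only with its part outside TEAD1. The split by TEAD1 therefore favoured a low HA-YAP5SA share at TEAD4-only peaks, and likewise a high YAP share. The tests below do not separate this from a difference in occupancy. How far the split set the direction of the differences was not tested. Of all TEAD4 peaks, 6.28% met an HA-YAP5SA peak, 0.624% a YAP peak and 0.0492% a TAZ peak by at least 1 base. HA-YAP5SA was present at 2 of the 353 TEAD4-only peaks (0.567%, interval 0.0687 to 2.03%) and at 763 of the 11835 others (6.45%, 6.01 to 6.90%), an odds ratio of 0.0827 (interval 0.00996 to 0.302; adjusted p = 6.5e-08, Fisher's exact test, two-sided, Benjamini-Hochberg over 3 lists).

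Within levels of the TEAD4 score the HA-YAP5SA difference was smaller and did not pass the test. Below the list's median score, 0 of 334 TEAD4-only peaks met HA-YAP5SA (interval 0 to 1.10%) and 50 of 5760 others did (0.868%, interval 0.645 to 1.14%, adjusted p = 0.11, same exact test). As 0 is the lowest count possible, no shortfall at TEAD4-only peaks could have passed the test in this class. At or above the median, 2 of 19 (10.5%, interval 1.30 to 33.1%) and 713 of 6075 (11.7%, 10.9 to 12.6%) did (adjusted p = 1, same exact test). Those 2 were the last peak of the chromosome 11 stretch, not shown to be binding, and a 2210 bp peak on chromosome 21 that met all 3 coactivator lists. HA-YAP5SA was thus rare at low-scoring TEAD4 peaks with and without TEAD1, and with so few TEAD4-only peaks in the upper class a difference of several percentage points was not detectable there. Neither class therefore shows whether the shares differ at equal score.

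For YAP the share was higher at TEAD4-only peaks. The IgG and input libraries were not analysed at these places, so a shared base with a YAP or TAZ peak is not shown to be coactivator binding. The YAP antibody had a peak at 11 of 353 TEAD4-only peaks (3.12%, interval 1.57 to 5.51%) and at 65 of 11835 others (0.549%, 0.424 to 0.699%), an odds ratio of 5.82 (2.75 to 11.2; adjusted p = 1.1e-05, Fisher's exact test, two-sided). Most of these were wide peaks: YAP was present at 9 of the 18 TEAD4-only peaks over 1 kb and at 2 of the 335 narrower ones (0.597%, 0.0724 to 2.14%). Wide TEAD4 peaks with TEAD1 met YAP in 6 of 28 cases (21.4%, 8.30 to 41.0%), beside 50% (26.0 to 74.0%) of the 18. These intervals overlap, and the difference was not tested. Narrower peaks with TEAD1 met YAP in 0.500% (0.381 to 0.644%), and over peaks of 1 kb or less the adjusted p was 0.69 (same exact test). Among TEAD4 peaks below the median score the YAP shares were 2.40% (8 of 334) and 0.0868% (5 of 5760). Without dense runs of YAP and TAZ peaks (4 or more, each within 25 kb of the next) and unplaced scaffolds, 4 of 344 and 62 of 11819 met YAP (adjusted p = 0.12, same exact test).

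TAZ was present at 6 of 353 TEAD4-only peaks (1.70%, interval 0.626 to 3.66%) and at 0 of 11835 others. None of the 153 TAZ peaks shared a base with TEAD1, so a TAZ peak could meet a TEAD4 peak with TEAD1 only at its outer part. The split by TEAD1 therefore largely fixed the count of 0, and the TAZ shares are given as a description with no test. Of the 6 peaks, 5 were wider than 1 kb.

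**Figure D5:**
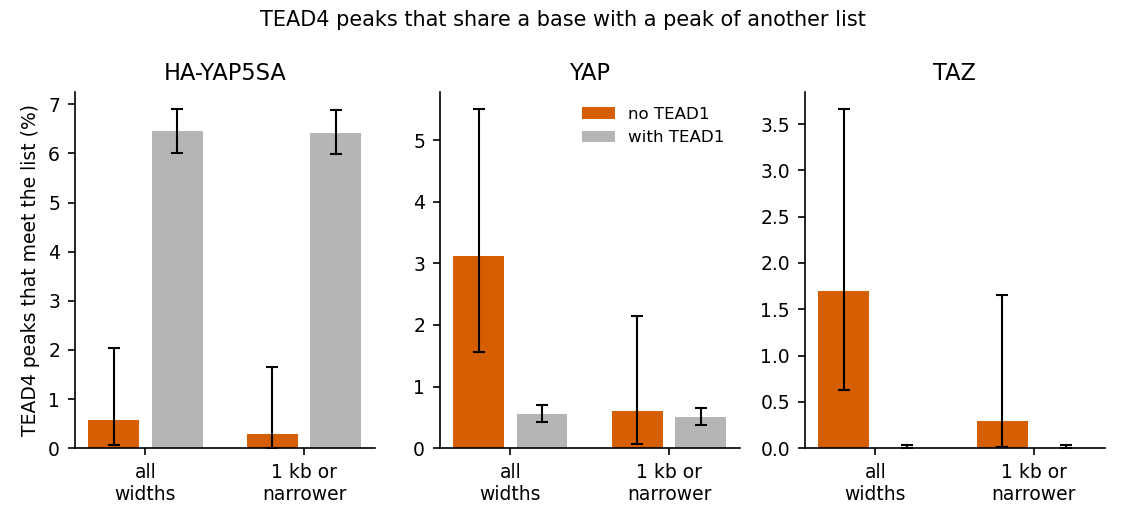
Percent of TEAD4 peaks that share at least 1 base with an HA-YAP5SA, YAP or TAZ peak, for peaks without TEAD1 (orange) and with TEAD1 (grey), over all widths and over peaks of 1 kb or less; lines are exact 95% binomial intervals and each panel has its own scale. The YAP share of 3.12% over all widths becomes 0.597% for the narrower peaks, beside 0.500% with TEAD1.

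In all, 17 TEAD4-only peaks (4.82%, interval 2.83 to 7.60%) met at least 1 of the 3 coactivator lists, beside 776 of the 11835 others (6.56%, 6.12 to 7.02%). Of the 17, 13 were wider than 1 kb and 9 lay in a dense run or on a scaffold. Just 1, the peak on chromosome 21 (9825428 to 9827637, 2210 bp), met all 3: it shared 2144 bp with HA-YAP5SA, 2199 bp with YAP and 2198 bp with TAZ. The other 16 met 1 list each. The other HA-YAP5SA case was the chromosome 11 peak described above, at 423 bp. The widest, on chromosome Y, shared 51110 of its 51174 bp with YAP.

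The next widest were on chromosome 1 (228745951 to 228753798, 7848 bp, 356 bp shared with YAP) and chromosome 16 (46402383 to 46407165, 4783 bp, 2188 bp shared with YAP). The remaining pair of the 5 widest met TAZ, on chromosome 1 (2583974 to 2587856, 3883 bp, 2754 bp shared) and chromosome 8 (86566314 to 86570089, 3776 bp, 1230 bp shared). The chromosome 16 peak was also the farthest of all from TEAD1, at 939 kb.

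Several of the peaks with YAP or TAZ came in neighbouring pairs. On chromosome 7 they lay 95 bp apart, at 56438125 to 56440885 (score 94.8, 2748 bp shared with TAZ) and 56440981 to 56442540 (score 161, 819 bp shared with TAZ). On chromosome 1, both peaks of a pair near the start of the sequence met YAP, at 565534 to 566925 (1237 bp shared) and 569084 to 570314 (1226 bp shared). On chromosome 4 the pair lay at 49638822 to 49640686 (1857 bp shared with YAP) and 49647941 to 49650438 (1576 bp shared with YAP). On chromosome 18 a single peak at 18518056 to 18520356 shared 2289 of its 2301 bp with YAP. In these peaks on chromosomes 1, 4 and 18 most of the TEAD4 peak was covered by YAP, least in the second of chromosome 4, with 1576 of 2498 bp. All of these lay in dense runs of YAP and TAZ peaks. So did the wide peaks on chromosomes 8 and 16 named above and the 218 bp peak on chromosome Y named below.

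Narrow peaks with YAP were few. They were on chromosome Y (13859257 to 13859474, 218 bp, 125 bp shared) and on chromosome 21 (10819315 to 10820213, 899 bp, 481 bp shared). The narrowest peak with TAZ lay on the unplaced scaffold gl000235 (1608 to 2416, 685 bp shared). Of the 18 wide TEAD4-only peaks, 13 met a coactivator list (72.2%, interval 46.5 to 90.3%), as did 10 of the 28 wide peaks with TEAD1 (35.7%, 18.6 to 55.9%). These intervals overlap, and the difference was not tested. The 5 wide TEAD4-only peaks that met none included both other peaks of the group of 3 on chromosome 1, at 228770455 to 228772121 (score 88.0) and 228779440 to 228782516 (score 95.0), in the same 36.6 kb as the 7848 bp peak.

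Setting these 17 aside left 336 TEAD4-only peaks with no coactivator peak. Their median score was 95.0 (interquartile range 87.1 to 110.4) and their median width 296.5 bp (238 to 374.75 bp). The nearest HA-YAP5SA peak lay a median of 659 kb away (198 to 1986 kb). Over the 352 TEAD4-only peaks on a sequence with an HA-YAP5SA peak that median was 686 kb (198 to 1989 kb). Over the 11824 TEAD4 peaks with TEAD1 on such a sequence, those on an HA-YAP5SA peak included, it was 716 kb (174 to 2026 kb). Seen from the coactivator lists, 2 of the 41 HA-YAP5SA peaks without TEAD1, 16 of the 362 YAP peaks without TEAD1 (4.42%, interval 2.55 to 7.08%) and 6 of the 153 TAZ peaks lay on a TEAD4-only peak. Most coactivator peaks without TEAD1 were therefore without TEAD4-only peaks as well.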

How the data were processed

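Cross-linked, sonicated chromatin of HuCCT1 cells was precipitated and sequenced, per the labels' protocols. Bowtie2 and hg19 are named in the submitters' processing notes. Peak names begin with MACS, per the file headers and rows. The caller's version, threshold and control were not given in the sources used here. The authors deposited 1 list per library, with a peak score of unstated scale. Scores were compared only within the TEAD4 list, except where a TEAD1 or HA-YAP5SA score is given as a label of its peak. The sequencing depth is unknown.

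Samples were grouped by title. TEAD starts were read as counted from 1, those of the lists without a header from 0 and raised by 1, so starts are uncertain by 1 bp. Distances count the bases between peaks. Shares were compared by two-sided Fisher's exact tests, adjusted over 3 lists by the Benjamini-Hochberg method, which treat peaks as independent although they are no replicates. The planned TAZ test is not used, since no TAZ peak shares a base with TEAD1, by which the groups are split. A count of 0 was given the same exact interval. Overlap and test were tested on simulated data. Members, lists and rules were chosen with earlier results of these data known. Named peaks were the 10 with the highest score, up to 15 with a coactivator peak, the 5 widest and the 5 on each side of the rule's line. Further peaks with a coactivator or over 1 kb, the chromosome 11 stretch and groups of neighbours were named after their values were seen. Motif, sequence and gene annotation need an hg19 genome and were not analysed here. The 13 alternatives are in the closing section. SciPy 1.17.1, pandas 2.3.3 and NumPy 2.4.6 under Python 3.11.15 gave the values, and matplotlib 3.10.9 the figures.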

Additional observations from a re-analysis of the deposited data

How the results depend on the processing

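The number of TEAD4-only peaks stayed between 311 and 379 under 6 of 8 alternatives, among them 500 bp and 1 kb margins, 50% overlap, centres, starts counted from 0 and chromosomes 1 to 22 and X. It was 1495 with TEAD1 peaks at or above their median score and 19 with TEAD4 peaks at or above theirs, fewer peaks being used in each. The difference in the HA-YAP5SA share, -5.88 percentage points (TEAD4-only minus other), passed under 11 of 13 alternatives (-6.77 to -5.78 points). It was -1.21 points (adjusted p = 1, Fisher's exact test) at or above and -0.868 points (adjusted p = 0.11, same test) below the median TEAD4 score. Below it no TEAD4-only peak met HA-YAP5SA, so no lower count was possible and a shortfall could not have passed. The YAP difference, 2.57 points, passed under 10 (2.04 to 14.8 points). It was 0.357 points with TEAD1 peaks at or above their median score (adjusted p = 0.11), 0.0973 points for peaks of at most 1 kb (adjusted p = 0.69) and 0.638 points without dense runs and scaffolds (adjusted p = 0.12), by the same exact test; the cause was not tested. The TAZ difference, 1.70 points, ran from 0.299 to 5.26 points over the 13 alternatives, but TAZ and TEAD1 peaks share no base, so the split largely fixes its direction and these values say nothing about stability. For HA-YAP5SA and YAP, 4.84% and 79.7% of whose peaks lacked TEAD1, the split favoured the directions seen. How far it set them was not tested, so the alternatives passed are no independent support for either difference. No paired analysis was possible because each group has 1 library. Without replicates or a known depth, no value shows that TEAD1 was absent at these peaks.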
